A study of Rattus norvegicus with 9 samples.

Results

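The elastic fibre and microfibril genes described here are 10 rat genes, namely Eln, Fbn1, Fbn2, Fbln1, Fbln5, Mfap4, Mfap5, Efemp1, Lox and Loxl1. They were taken by name, as all array probes whose transcript accession maps to those genes. Of the 10 genes 9 had a probe that could be matched and 7 entered the tests with flagged spots removed, among 11047 genes tested in all. Mfap5 and Efemp1 lost too many flagged spots and are given with those spots kept, and Lox was not matched to a probe and is not analysed here. RNA from bladders of female rats was hybridised to 9 Agilent arrays with 1 dye, 3 for each group at 3 weeks. The first group had partial bladder outlet obstruction (pBOO) and received tolterodine, which blocks muscarinic acetylcholine receptors. The second group had pBOO alone, made by ligating the proximal urethra around a catheter, and the third had a sham operation without ligation. No strain, age or tolterodine dose is given in the sources used here. The labels speak of 5 bladders examined per group and leave unsaid whether an array holds 1 animal or a pool, so every p-value measures the spread between these arrays, which may be technical. The letters by which the treatment protocol names obstruction and sham surgery are the opposite of those in the codes of the arrays. Groups follow the titles, and if the names pBOO and sham were exchanged, the sign of pBOO against sham would turn and both comparisons with tolterodine would trade places.

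Elastic fibres let an organ that fills and empties return to its shape. They consist of a core of elastin, cross-linked by lysyl oxidases, on a scaffold of microfibrils built from fibrillins and their associated glycoproteins, while fibulins help to bring elastin, scaffold and enzyme together. In the bladder wall such fibres lie between muscle bundles and in the lamina propria, and the scaffold also stores latent growth factors of the TGF-β family.

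Fbln5 and Fbn2 are the members whose levels moved furthest in opposite directions between obstructed bladders with tolterodine and those without, and their promoters are shown for that reason. Both come from RefSeq on the rat assembly GRCr8 and run from 250 bases before to 50 bases after the annotated start of the gene, 5′ to 3′. The Fbln5 promoter is chr6:126742657-126742956 and the Fbn2 promoter is chr18:53901943-53902242, each on the minus strand. Capitals mark the E-box CANNTG and the SMAD core motif CAGAC, searched on both strands, with 0 bases shared by both motifs.
Fbln5: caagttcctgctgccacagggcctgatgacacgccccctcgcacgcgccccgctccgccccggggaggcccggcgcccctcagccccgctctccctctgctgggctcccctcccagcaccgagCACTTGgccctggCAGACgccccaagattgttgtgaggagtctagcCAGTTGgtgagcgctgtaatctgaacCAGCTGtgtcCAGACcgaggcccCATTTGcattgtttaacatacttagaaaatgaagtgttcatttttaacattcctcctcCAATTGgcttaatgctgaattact
Fbn2: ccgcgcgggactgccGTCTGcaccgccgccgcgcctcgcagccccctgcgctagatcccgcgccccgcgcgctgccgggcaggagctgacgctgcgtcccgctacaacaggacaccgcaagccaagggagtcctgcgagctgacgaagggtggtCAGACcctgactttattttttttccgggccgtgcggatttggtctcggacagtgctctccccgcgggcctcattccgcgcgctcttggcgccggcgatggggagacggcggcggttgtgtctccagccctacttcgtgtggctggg
The Fbln5 window held 5 E-boxes and 2 CAGAC matches, and the Fbn2 window held 0 E-boxes and 2 CAGAC matches. Of 33469 promoters of the same length, 72.1% held an E-box and 50.1% held CAGAC. Promoters were matched for 6 of the 10 members. The E-box count was 2 for Mfap5, 1 for Efemp1 and 0 for Fbn1 and Loxl1, and the CAGAC count was 4 for Efemp1, 2 for Loxl1, 1 for Fbn1 and 0 for Mfap5. The GC box GGGCGG was found once each in Fbln5 and Efemp1 and lies in 33.1% of all promoters, whereas the CArG box, a motif of smooth muscle genes, had 0 matches in the 6 windows and lies in 1.64% of all promoters. These matches describe letters in a window and say nothing about binding.

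Levels are log2 processed signals relative to the 75th percentile of the same array, so that 0 is that percentile, and they can be compared between arrays for a probe but not between probes. The 75th percentile ran from 523 to 1441 intensity units over the arrays, 72.1% to 80.1% of spots were well above background, and 4.66% to 6.31% carried an outlier flag. All 10 member probes were well above background on all 9 arrays. The number of arrays limits the precision, with a median standard error (SE) of 0.17 for a log2 fold change. The 11 smooth muscle and 10 urothelial markers with a probe were well above background on all 9 arrays. So were the 11 fibroblast and 10 macrophage markers with a probe. Most spots passed this threshold, so it is only a weak check of bladder identity. The file headers place pBOO 1, 2 and 3 with sham 1 in one scan, tolterodine 1 and 2 with sham 2 and 3 in another, and tolterodine 3 in a scan of its own. Tolterodine and pBOO arrays therefore never share a scan, and a fit with the scan as a block links these groups only through the sham arrays.

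**Figure D1:**
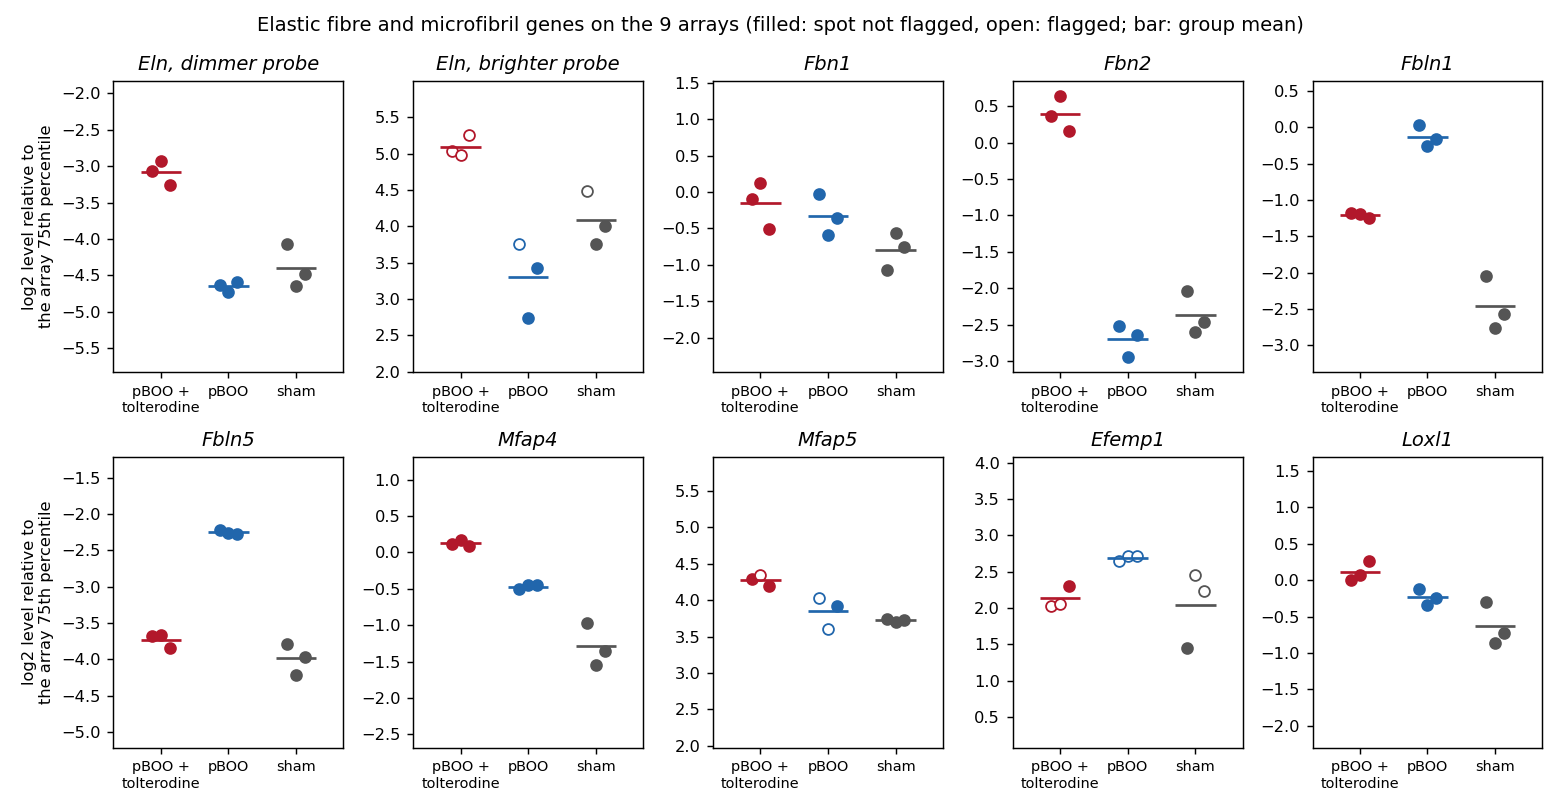
Log2 level of each of the 10 member probes on every array (vertical axis, relative to the array's 75th percentile), with filled points for single arrays, open points for flagged spots and lines at group means, in the order tolterodine, pBOO, sham. Fbn2 and both Eln probes lay highest in the 3 tolterodine arrays, and Fbln1 and Fbln5 lay highest in the 3 pBOO arrays.

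Elastin itself was higher in obstructed bladders given tolterodine than in either other group, on both of its probes. Eln encodes tropoelastin, the soluble monomer of the fibre core. On the dimmer probe (A_43_P15663, no flagged spot) Eln stood at -3.06, -2.93 and -3.26 with tolterodine, at -4.63, -4.73 and -4.59 in pBOO, and at -4.07, -4.65 and -4.48 in sham. All 3 tolterodine arrays lay above all other arrays, and the ranges of pBOO and sham overlapped. Local background at this dim probe was 10.6% to 29.7% of the spot's own signal. The level of Eln rose with tolterodine by 1.57 against pBOO (SE 0.16; 2.97-fold; limma adjusted p = 0.000134) and by 1.32 against sham (SE 0.16; 2.50-fold; limma adjusted p = 0.00116). Between pBOO and sham the difference was -0.25 (SE 0.16; limma adjusted p = 0.248). With normexp background correction the gain over sham was 0.52 and did not pass (limma adjusted p = 0.104), and the gain over pBOO was 0.84.

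The brighter Eln probe (A_64_P138919) carried background outlier flags on 5 arrays and entered only with flagged spots kept. The flags fell on all 3 tolterodine arrays, 1 pBOO array and 1 sham array, so the probe's tolterodine level rests on flagged spots alone. Local background at this probe was 0.083% to 0.338% of the spot's own signal. Its level was 5.04, 4.97 and 5.26 with tolterodine, 3.76, 2.73 and 3.43 in pBOO, and 4.49, 3.76 and 4.00 in sham. The tolterodine arrays were again above the rest, while pBOO and sham met near their edges. Here the level rose by 1.78 against pBOO (SE 0.27; 3.44-fold; limma adjusted p = 0.00113) and by 1.01 against sham (SE 0.27; 2.01-fold; limma adjusted p = 0.0287). In pBOO against sham it fell by 0.77 (SE 0.27; limma adjusted p = 0.0469), a call that was lost in 11 of 18 alternatives, with adjusted p up to 0.355. The dimmer probe passed as lower in pBOO with the scan as a fixed block, at -0.58 (limma adjusted p = 0.0115), and as a random block, at -0.44 (limma adjusted p = 0.0445), but without sham 1 it differed by -0.08. For the brighter probe the call against sham was lost with array median scaling, at 0.87, and without tolterodine 1, 2 or 3 or sham 2 or 3, at 0.85 to 1.07.

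Among the fibrillins, which polymerise into the microfibril, Fbn2 showed the widest movement of any member and Fbn1 passed in no comparison. Fbn2, the fibrillin used mainly during development, stood at 0.37, 0.64 and 0.16 with tolterodine, at -2.52, -2.94 and -2.64 in pBOO, and at -2.04, -2.60 and -2.46 in sham. Every tolterodine array lay above every other array, with pBOO and sham overlapping. Its level rose with tolterodine by 3.09 against pBOO (SE 0.19; 8.51-fold; limma adjusted p = 1.02e-05) and by 2.75 against sham (SE 0.19; 6.74-fold; limma adjusted p = 0.000135). These gains ranged from 2.69 to 3.69 and from 2.34 to 3.03 over the alternatives run, and all passed. In pBOO against sham Fbn2 differed by -0.34 (SE 0.19; limma adjusted p = 0.191), and it passed as lower only with the scan as a fixed block, at -0.66 (limma adjusted p = 0.0351). Without sham 1 this difference was -0.17 and without pBOO 2 it was -0.21.

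Fbn1 encodes the main fibrillin of adult tissue. Its level was -0.09, 0.13 and -0.51 with tolterodine, -0.02, -0.60 and -0.36 in pBOO, and -1.08, -0.56 and -0.76 in sham. The tolterodine arrays lay above the sham arrays by a narrow margin, and pBOO overlapped both. The difference was 0.47 for pBOO against sham (SE 0.22; limma adjusted p = 0.109), 0.17 for tolterodine against pBOO (SE 0.22; limma adjusted p = 0.563) and 0.64 for tolterodine against sham (SE 0.22; limma adjusted p = 0.0610). The 95% intervals were -0.02 to 0.96, -0.32 to 0.66 and 0.15 to 1.13. With the scan as a fixed block, Fbn1 passed as higher in pBOO than in sham, at 0.75 (limma adjusted p = 0.0391), and with tolterodine than in sham, at 0.67 (limma adjusted p = 0.0371). Without tolterodine 3 the last difference was 0.81 and also passed (limma adjusted p = 0.0316).

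Mfap4, a glycoprotein that binds fibrillin microfibrils and tropoelastin, separated the 3 groups, with tolterodine highest and sham lowest. It stood at 0.12, 0.17 and 0.08 with tolterodine, at -0.51, -0.45 and -0.45 in pBOO, and at -0.97, -1.54 and -1.35 in sham. No ranges overlapped between groups. Its level rose by 0.82 in pBOO against sham (SE 0.15; 1.76-fold; limma adjusted p = 0.00240), by 0.60 with tolterodine against pBOO (SE 0.15; 1.51-fold; limma adjusted p = 0.0111) and by 1.41 with tolterodine against sham (SE 0.15; 2.67-fold; limma adjusted p = 0.000550). Within the scan that holds pBOO and sham 1, the gain in pBOO was 0.50 and did not pass (limma adjusted p = 0.0531). The gain with tolterodine over pBOO was 1.1 with the scan as a fixed block.

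Mfap5, a microfibril glycoprotein that binds fibrillin, was bright and carried flags on 3 arrays, 1 with tolterodine and 2 in pBOO. With flagged spots kept it stood at 4.29, 4.34 and 4.19 with tolterodine, at 4.02, 3.60 and 3.92 in pBOO, and at 3.74, 3.70 and 3.73 in sham. The tolterodine arrays lay above the rest, and the sham values lay inside the pBOO range. The level rose with tolterodine by 0.43 against pBOO (SE 0.13; 1.35-fold; limma adjusted p = 0.0253) and by 0.55 against sham (SE 0.13; 1.46-fold; limma adjusted p = 0.0164), and pBOO differed from sham by 0.12 (SE 0.13; limma adjusted p = 0.472). Quantile scaling made the difference of tolterodine from pBOO 0.09 (limma adjusted p = 0.647) and that of pBOO from sham 0.57 (limma adjusted p = 0.0173). The call against pBOO was lost in 9 of 17 alternatives, among them those without tolterodine 1 or 2 or pBOO 2 or 3. The call against sham was lost in 6 of 18, among them those without tolterodine 1 or 2 or sham 2 or 3.

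Fbln1 and Fbln5, both fibulins, had their highest levels in obstructed bladders without the drug. Fbln1 is a calcium-binding glycoprotein of elastic fibres and basement membranes. Its level was -1.18, -1.19 and -1.25 with tolterodine, 0.03, -0.27 and -0.17 in pBOO, and -2.05, -2.76 and -2.57 in sham. The groups did not overlap, with pBOO highest and sham lowest. Fbln1 rose by 2.33 in pBOO against sham (SE 0.18; 5.01-fold; limma adjusted p = 3.79e-05), and by 1.91 within the scan that holds both. With tolterodine it fell by 1.07 against pBOO (SE 0.18; 2.10-fold; limma adjusted p = 0.00188) and remained higher than in sham by 1.25 (SE 0.18; 2.39-fold; limma adjusted p = 0.00221). With the scan as a fixed block, which rests on sham 1, the difference from pBOO was -0.43 and did not pass (limma adjusted p = 0.124). With the scan as a random block it was -0.69 and passed (limma adjusted p = 0.0249).

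Fbln5, which in mice is needed for elastic fibre assembly and binds tropoelastin and Loxl1, was high in pBOO alone. It stood at -3.68, -3.66 and -3.84 with tolterodine, at -2.22, -2.26 and -2.27 in pBOO, and at -3.78, -4.21 and -3.97 in sham. The pBOO arrays lay well above all others, and the other groups overlapped. The Fbln5 probe was dim, with local background at 6.71% to 33.3% of the spot's own signal. Fbln5 rose by 1.74 in pBOO against sham (SE 0.13; 3.33-fold; limma adjusted p = 3.06e-05) and fell by 1.48 with tolterodine against pBOO (SE 0.13; 2.78-fold; limma adjusted p = 5.34e-05). Both calls held in every alternative run, with the smallest sizes, 0.84 and -0.83, under normexp. The difference between tolterodine and sham was 0.26 (SE 0.13; limma adjusted p = 0.168; 95% interval -0.03 to 0.55). It was -0.06 with quantile scaling and passed at 0.42 with the scan as a fixed block (limma adjusted p = 0.0223), at 0.34 with it as a random block and at 0.36 without sham 1 (limma adjusted p = 0.0443).

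Efemp1 encodes fibulin-3, a fibulin of fascia and vessel walls. Local background was 0.346% to 1.11% of the spot's signal. Efemp1 was flagged on 7 arrays, namely 2 with tolterodine, all 3 in pBOO and 2 in sham, and is given with those spots kept. Its level was 2.03, 2.06 and 2.31 with tolterodine, 2.65, 2.71 and 2.71 in pBOO, and 1.45, 2.45 and 2.24 in sham. The pBOO arrays lay above all others, and sham 1 was the lowest array. The difference was 0.65 for pBOO against sham (SE 0.23; limma adjusted p = 0.0512), -0.56 for tolterodine against pBOO (SE 0.23; limma adjusted p = 0.0841) and 0.09 for tolterodine against sham (SE 0.23; limma adjusted p = 0.810). The first was 1.24 with the scan as a fixed block and 0.85 without sham 2, and passed in both (limma adjusted p = 0.000510 and 0.0197). It also passed with quantile scaling, at 0.92 (limma adjusted p = 0.0108), while without sham 1 it was 0.35 and did not pass (limma adjusted p = 0.0536). The second was -1.54 with the scan as a fixed block and kept its size without sham 1, where the spread was smaller, and passed in both (limma adjusted p = 0.000816 and 0.00491).

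Loxl1 encodes a lysyl oxidase that cross-links elastin and, in mice, is needed to renew elastic fibres of the pelvic organs after giving birth. It stood at 0.01, 0.07 and 0.26 with tolterodine, at -0.12, -0.34 and -0.24 in pBOO, and at -0.30, -0.87 and -0.72 in sham. The tolterodine arrays lay above the rest, while pBOO and sham overlapped through sham 1. The level rose with tolterodine by 0.74 against sham (SE 0.16; 1.67-fold; limma adjusted p = 0.0122), and without sham 3 this was 0.69 and did not pass (limma adjusted p = 0.0520). The difference was 0.35 for tolterodine against pBOO (SE 0.16; limma adjusted p = 0.112) and 0.39 for pBOO against sham (SE 0.16; limma adjusted p = 0.0775). Without sham 1 these passed at 0.35 (limma adjusted p = 0.0341) and 0.56 (limma adjusted p = 0.00860), and within the scan that holds pBOO and sham 1 the difference between pBOO and sham was 0.06. With the scan as a block, Loxl1 passed as higher with tolterodine than in pBOO, at 0.77 (limma adjusted p = 0.0134) for a fixed and 0.63 (limma adjusted p = 0.0163) for a random block.

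**Figure D2:**
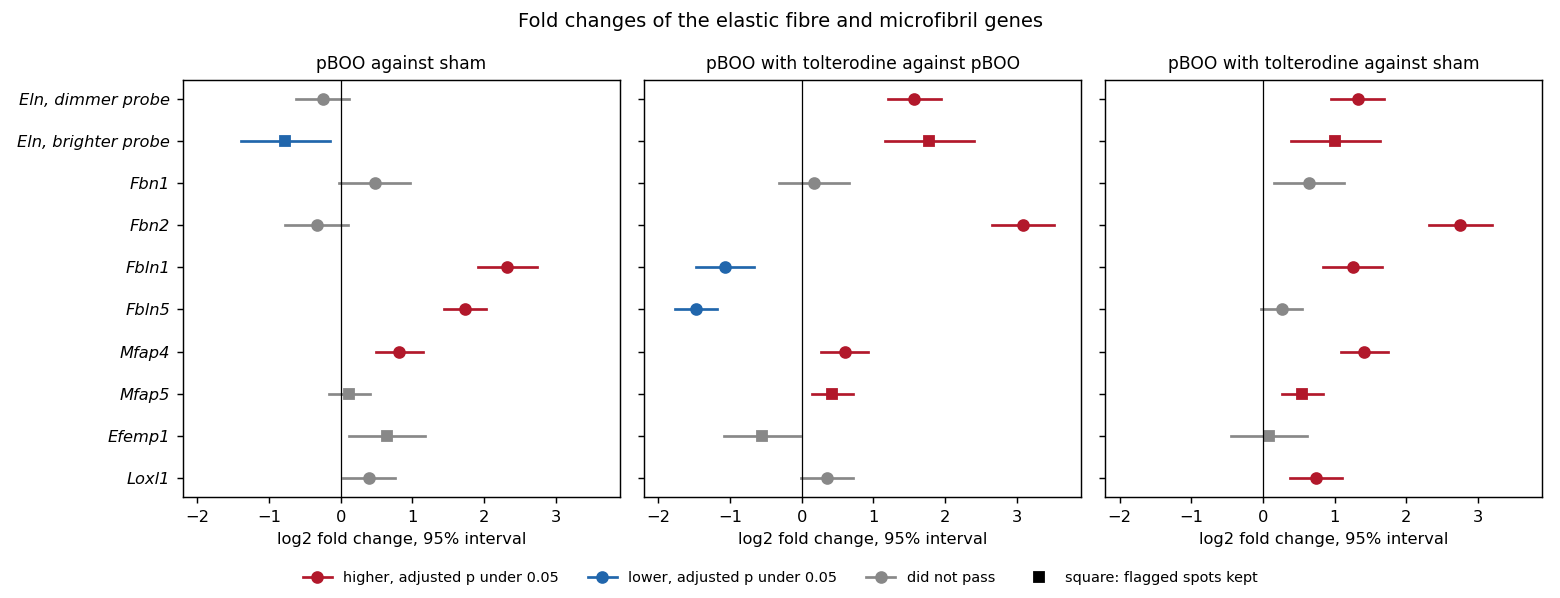
Log2 fold change of each member probe in the 3 comparisons (horizontal axis), with lines for the 95% interval of the fit, squares where flagged spots were kept, red for higher and blue for lower with adjusted p under 0.05, and grey for values that did not pass. Fbn2 has the largest values with tolterodine, 3.09 against pBOO and 2.75 against sham, and Fbln1 and Fbln5 have the largest in pBOO against sham, at 2.33 and 1.74.

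The comparison of pBOO with sham asks what obstruction alone changed. Fbln1, Fbln5 and Mfap4 were higher in obstructed bladders and no tested member was lower. Of 7 members tested, 3 rose and 0 fell, while 42.5% of all genes passed, 20.8% as higher and 21.7% as lower. The member median was 0.47, against -0.04 over all genes. With flagged spots kept, 3 of 9 members rose and 1 (Eln, brighter probe) fell, beside 43.4% of all genes (20.5% as higher, 22.9% as lower). In RNA of a mixed tissue, fewer cells of a type and less RNA per cell cannot be told apart. The members are not independent of each other, and all 3 comparisons are drawn from the same 9 arrays.

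Other proteins of the elastic fibre and microfibril were mostly higher in pBOO. Of 17 genes on this list 8 were tested, 5 rose and 1 fell, with a median of 0.97. Adamtsl4, which binds fibrillin-1 and promotes microfibril assembly, rose by 3.09 (SE 0.13; limma adjusted p = 2.52e-06). The latent TGF-β binding proteins, which tether the growth factor to the matrix, rose by 2.55 for Ltbp1 (SE 0.13), 1.47 for Ltbp4 (SE 0.20) and 1.40 for Ltbp3 (SE 0.13). Ltbp2, a relative that binds fibrillin but not latent TGF-β, fell by 0.96 (SE 0.31; limma adjusted p = 0.0370), and was named because it was the single fall. Of 9 cross-linking and assembly enzymes 7 were tested, 3 rose and 0 fell, with a median of 0.17. These were the lysyl oxidase Loxl3 at 0.83 (SE 0.12), the procollagen protease Bmp1 at 0.57 (SE 0.15) and the copper transporter Atp7a at 0.48 (SE 0.16).

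Among elastin-degrading proteases, elastin receptor subunits and protease inhibitors, falls outnumbered rises. Of 17 genes 14 were tested, 2 rose and 7 fell, with a median of -0.57. The rises were Timp3, an inhibitor of metalloproteases, at 0.88 (SE 0.16, from 2 unflagged pBOO arrays) and the gelatinase Mmp2 at 0.63 (SE 0.10). Timp1, another inhibitor of metalloproteases, fell by 0.97 (SE 0.25; limma adjusted p = 0.0134). Mmp7, a metalloprotease of epithelia, fell by 6.92 (SE 0.26; limma adjusted p = 1.65e-06). Slpi, which inhibits neutrophil elastase, fell by 2.16 (SE 0.19). The macrophage elastase Mmp12 fell by 1.65 (SE 0.18), and the elastin-degrading cathepsin Ctss fell by 1.11 (SE 0.21).

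Cell type markers moved in the same comparison. Smooth muscle markers rose in 7 of 8 tested genes with 0 falling, or in 8 of 11 with flagged spots kept. The summed linear level of the 11 with a probe, flagged spots kept, was 563 to 681 in pBOO, against 429 to 488 in sham. Bright probes weigh most in such sums. Lmod1 and Mylk led this list, at 3.38 and 2.77. Fibroblast markers rose in 4 of 9 (Cd34 by 2.11, Gsn by 1.56), with sums of 208 to 235 in pBOO, against 168 to 193 in sham. Endothelial markers rose in 4 of 7, with Cldn5 at 2.20 and Tek at least 2.10-fold higher, and sums of 4.58 to 7.01 in pBOO, against 3.62 to 3.80 in sham. Urothelial markers fell in 4 of 6 (Krt5 at -1.98, Krt14 at -1.86), or in 6 of 10 with flagged spots kept, with sums of 239 to 354 in pBOO, against 436 to 472 in sham. Macrophage markers fell in 7 of 10 (Tyrobp at -1.47, Aif1 at -1.32), with sums of 15.0 to 16.6 in pBOO, against 29.5 to 37.8 in sham. The part of these shifts in the changes of Fbln1, Fbln5 and Mfap4 was not tested. Here and in the other comparisons Krt14 rests on 2 unflagged arrays in sham and 2 with tolterodine, and Mrc1 on 2 with tolterodine.

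The comparison of obstructed bladders with and without tolterodine asks what the drug changed under obstruction. Fbn2, Eln and Mfap4 were higher with tolterodine, and Fbln5 and Fbln1 were lower. Of 7 members tested, 3 rose and 2 fell, while 41.3% of all genes passed, 26.0% as higher and 15.3% as lower. The member median was 0.35, against 0.11 over all genes. With flagged spots kept, 4 of 9 rose and 2 fell, beside 41.9% of all genes (26.6% as higher, 15.3% as lower). Quantile scaling moved the median of all genes by -0.10 and the share of passing genes that were higher to 52.7%, against 62.9% in the setting used here, and the 5 member calls kept their direction.

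The companion lists split in this comparison. Of 8 other elastic fibre and microfibril proteins 2 rose and 5 fell, with a median of -0.55. Ltbp2 rose by 3.01 (SE 0.31; limma adjusted p = 0.000141) and Efemp2, or fibulin-4, by 0.49 (SE 0.17; limma adjusted p = 0.0468), while Adamtsl4 fell by 1.66 (SE 0.13), Ltbp1 fell by 1.58 (SE 0.13) and Ltbp4, which in mice acts with Fbln5 in elastin deposition, fell by 1.45 (SE 0.20). Of 7 cross-linking and assembly enzymes 3 rose and 1 fell, with a median of 0.21. Bmp1 rose by 0.85 (SE 0.15), the prolyl isomerase Fkbp10 by 0.82 (SE 0.17) and Pcolce, which enhances Bmp1, by 0.73 (SE 0.13, from 2 unflagged tolterodine arrays here and against sham), and Loxl3 fell by 0.82 (SE 0.12). Of 14 elastases, receptor subunits and inhibitors 10 rose and 0 fell, with a median of 0.86. Mmp7 rose by 6.41 (SE 0.26; limma adjusted p = 1.54e-06), Slpi by 3.85 (SE 0.19), Mmp12 by 2.68 (SE 0.18) and Ctss by 2.55 (SE 0.21).

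**Figure D3:**
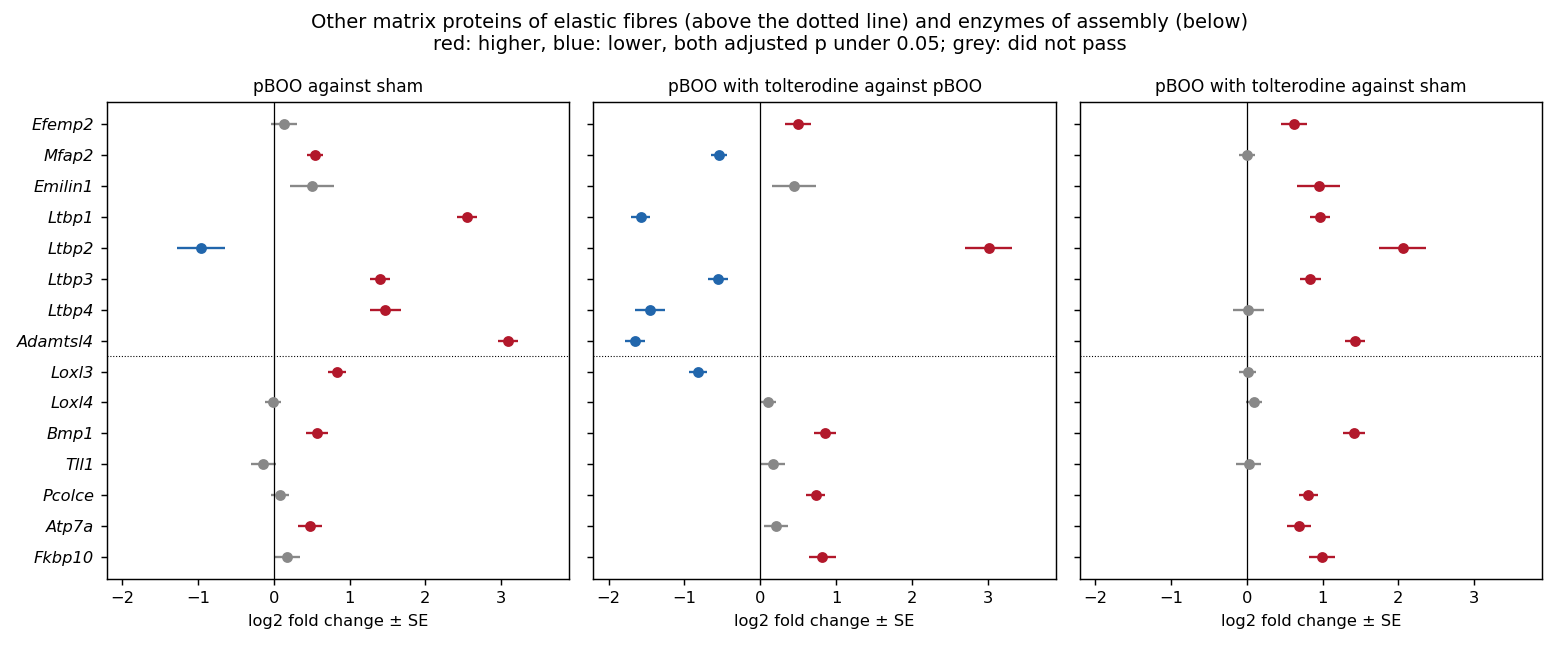
Log2 fold change with its standard error (horizontal axis) for the 8 tested proteins of elastic fibres and microfibrils outside the members and the 7 tested cross-linking and assembly enzymes, in red where higher and blue where lower with adjusted p under 0.05, and in grey otherwise. Ltbp2 stands at -0.96 in pBOO against sham and at 3.01 with tolterodine against pBOO, while Adamtsl4 stands at 3.09 and -1.66.

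Markers moved beside these changes as well. Macrophage markers rose in 9 of 10 genes (Cd163 by 2.45, C1qb by 2.43), with summed levels of 67.4 to 78.0 with tolterodine, against 15.0 to 16.6 in pBOO. Smooth muscle markers fell in 7 of 8 (Lmod1 at -2.69, Smtn at -2.64), or in 8 of 11 with flagged spots kept. Their sums were 350 to 539 with tolterodine, against 563 to 681 in pBOO. Fibroblast markers rose in 2 of 9 and fell in 2 (Thy1 at 0.87, Gsn at -2.36), with sums of 234 to 253 with tolterodine, against 208 to 235 in pBOO. Urothelial markers rose in 4 of 6 with 0 falling (Krt14 by 2.60, Krt15 by 1.33), and rose in 4 of 10 and fell in 3 with flagged spots kept, with overlapping sums of 294 to 392 with tolterodine, against 239 to 354 in pBOO. Endothelial markers rose in 1 of 7 and fell in 3 (Cldn5 at -0.97, and Tek at least 2.30-fold lower), with sums of 4.24 to 4.72 with tolterodine, against 4.58 to 7.01 in pBOO. Mean log2 levels of the urothelial markers, flagged spots kept, did not overlap, at 4.38 to 4.65 with tolterodine and 3.70 to 4.34 in pBOO. For endothelial markers these means were -1.82 to -1.74 and -1.50 to -1.17, and for fibroblast markers 2.20 to 2.30 and 2.22 to 2.30. The part of these shifts in the changes of the members was not tested.

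The comparison of obstructed bladders on tolterodine with sham bladders shows where the treated bladder stood relative to an unobstructed one. Fbn2, Mfap4, Eln, Fbln1 and Loxl1 were higher and no member was lower. Of 7 members tested, 5 rose and 0 fell, while 24.4% of all genes passed, 17.8% as higher and 6.58% as lower. The member median was 1.25, against 0.09 over all genes. With flagged spots kept, 6 of 9 rose and 0 fell, beside 24.1% of all genes (17.5% as higher, 6.54% as lower), the sixth being Mfap5. Array median scaling moved the median of all genes by -0.14, and of the genes that passed 49.9% were then higher (58.2% with quantile scaling), against 73.0% in the setting used here. All 5 member calls kept their direction and passed under both scalings.

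Of 8 other elastic fibre and microfibril proteins 6 rose and 0 fell against sham, with a median of 0.89. Ltbp2 rose by 2.06 (SE 0.31), Adamtsl4 by 1.43 (SE 0.13), Ltbp1 by 0.97 (SE 0.13) and Emilin1, an elastin-microfibril interface protein, by 0.95 (SE 0.29; limma adjusted p = 0.0431). Of 7 cross-linking and assembly enzymes 4 rose and 0 fell, with a median of 0.69, with Bmp1 at 1.42 (SE 0.15), Fkbp10 at 0.99 (SE 0.17), Pcolce at 0.81 (SE 0.13) and Atp7a at 0.69 (SE 0.16). Of 14 elastases, receptor subunits and inhibitors 6 rose and 0 fell, with a median of 0.49. Slpi rose by 1.69 (SE 0.19), Ctss by 1.44 (SE 0.21), Mmp2 by 1.21 (SE 0.10) and Mmp12 by 1.03 (SE 0.18). Macrophage markers rose in 9 of 10 (Mrc1 by 1.94, Cd163 by 1.67), with sums of 67.4 to 78.0 with tolterodine, against 29.5 to 37.8 in sham. Fibroblast markers rose in 6 of 9 and fell in 1 (Cd34 at 1.78, Pdgfra at 1.14), with sums of 234 to 253 with tolterodine, against 168 to 193 in sham. Smooth muscle markers rose in 3 of 8 (Mylk by 0.90, Myocd by 0.81), but in 2 of 11 with flagged spots kept. Their sums were 350 to 539 with tolterodine, against 429 to 488 in sham. The mean log2 levels of the same 11 genes did not overlap, at 3.31 to 3.63 with tolterodine and 3.00 to 3.26 in sham. Endothelial markers rose in 4 of 7 (Cldn5 by 1.23, Pecam1 by 1.03), with sums of 4.24 to 4.72 with tolterodine, against 3.62 to 3.80 in sham. Urothelial markers rose in 1 of 6 and fell in 2 (Krt14 at 0.74, Krt5 at -1.0), and rose in 0 of 10 and fell in 3 with flagged spots kept, with sums of 294 to 392 with tolterodine, against 436 to 472 in sham. The part of these shifts in the changes of the members was not tested.

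The 9 measured members therefore had different orders over the groups. Fbn2 and Eln had their highest level with tolterodine, while pBOO and sham did not differ beyond their spread in the fit used here, apart from the brighter Eln probe. Mfap4 ran in the order tolterodine, pBOO, sham, with each step passing in the fit used here. Its step between pBOO and sham was 0.82 in that fit and 0.50 within the scan that holds pBOO and sham 1. Fbln1 ran in the order pBOO, tolterodine, sham, again with each step passing in the fit used here. With the scan as a fixed block, the Fbln1 step between pBOO and tolterodine was -0.43 and did not pass. Fbln5 was highest in pBOO. Its tolterodine and sham levels did not differ beyond their spread in the fit used here, but passed with the scan as a block. For Fbn1 no pair of groups differed beyond the spread in the fit used here. For Loxl1 only the highest and the lowest group did. The calls of both Fbn1 and Loxl1 changed with the scan as a block. Eln and Fbn2 passed as lower in pBOO than in sham with the scan as a fixed block. Mfap5, with flagged spots kept, was highest with tolterodine. Efemp1, also with flagged spots kept, had its highest level in pBOO without passing in any comparison in the fit used here. With the scan as a fixed block Efemp1 passed as higher in pBOO than in either other group.

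**Figure D4:**
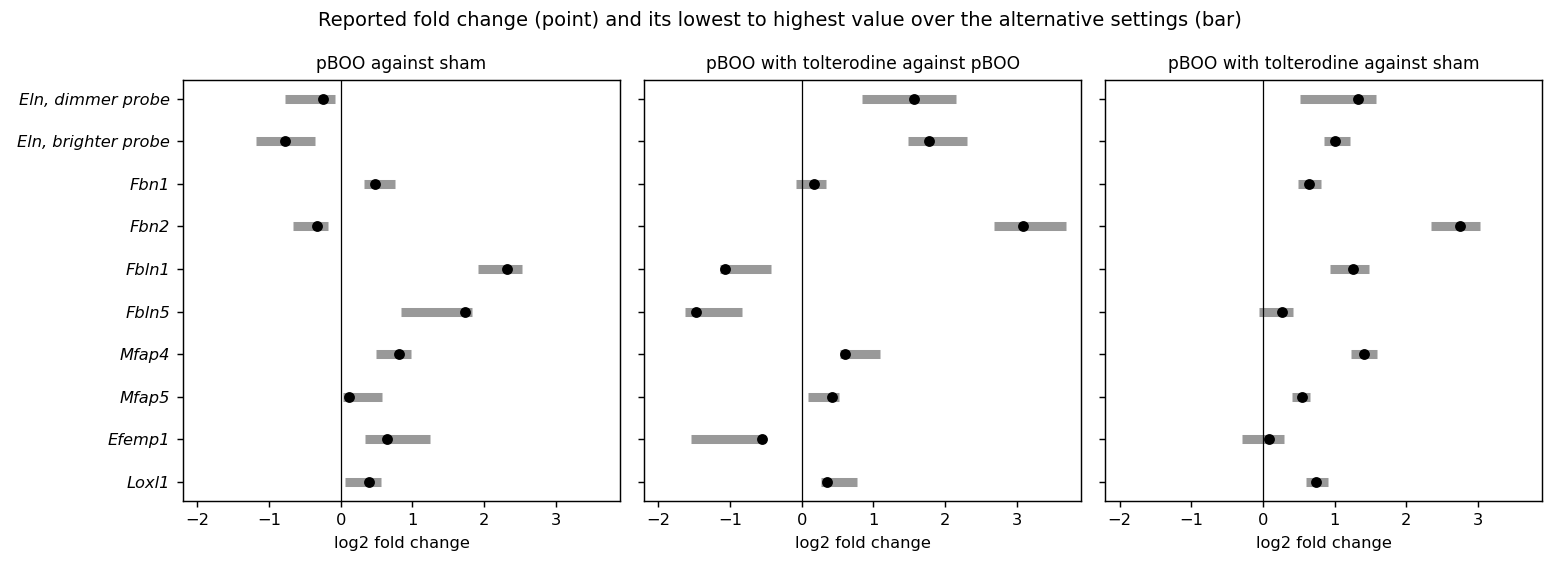
Range of the log2 fold change of each member over the processing alternatives (horizontal axis), with a point at the value reported in the text and a grey bar from the lowest to the highest alternative, for the 3 comparisons. The bar of the dimmer Eln probe includes the setting with flagged spots kept, where the brighter probe stands for Eln. That setting gives the bar's lowest value in pBOO against sham, -0.77. Fbn2 with tolterodine against pBOO runs from 2.69 to 3.69 and Fbln5 in pBOO against sham from 0.84 to 1.84.

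For 7 members with a value on all arrays, the non-member genes most like them over the 9 arrays were listed by Pearson r of the log2 levels among 10097 genes. These points share 3 groups and the same array scaling, and r is given as a description. Fbn2 was closest to Lyve1 (r = 0.994) and Gprc5a (r = 0.992), and the dimmer Eln probe to Gprc5a (r = 0.993) and Arhgdib (r = 0.990). Fbln5 was closest to Phldb1 (r = 0.995) and Rasgrp2 (r = 0.994), and Fbln1 to Pkdcc (r = 0.997) and Ppm1a (r = 0.994). Mfap4 was closest to Shc1 (r = 0.994) and Gm2a (r = 0.989), Loxl1 to Pou3f1 (r = 0.991) and Cyp21a1 (r = 0.989), and Fbn1 to Rab38 (r = 0.960) and Cyp2e1 (r = 0.959).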

How the data were processed

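The authors deposited 1 scanner file per array. Agilent Feature Extraction wrote them, in version 11.0.1.1 by the headers and 9.1 by the submitters' processing notes. The deposited processed signal, median signal and median background are intensity values that, per the file headers, were not scaled across arrays, and the processed signal had background subtracted and spatial trends removed. The deposited spot flags are of another kind, 0 or 1.

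From 42877 non-control spots, log2 processed signals were set against the 75th percentile of their array. Spots flagged as non-uniform or as population outliers were removed or, as an alternative, kept. Being well above background on 3 or more arrays was required, which 22144 of 30367 probes met. Accessions were matched to RefSeq symbols of GRCr8 (18005 probes matched, 12362 did not), and the probe with the highest mean stood for a gene. A gene needed 2 unflagged arrays per group. This left 11047 genes, or 11636 with flagged spots kept. The array design names an older genome build, so no probe coordinates are given.

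Each comparison was a contrast in 1 limma fit over 9 arrays (R 4.3.3, limma 3.58.1, data.table package 1.17.8). Tests were two-sided on 6 residual degrees of freedom plus a prior of 2.78, adjusted over all genes by Benjamini-Hochberg and called under 0.05. The script was tested on simulated data. Alternatives covered background correction (normexp, offset 50), flags, scaling, the dim-probe filter, the probe rule, the scan, the replicate number and each array left out. A fold written as "at least" sets the bright group against the lowest signal called well above background. Arrays sharing a scan time in the headers were treated as a batch. The members and lists were chosen with earlier results of these data known. Named were all members, the 4 largest passing genes of each companion list and the 2 largest of each marker list per comparison, and the 2 genes most like each member. Outside this rule, Ltbp2, Timp1, Timp3 and Mmp2 were named in pBOO against sham and Efemp2 with tolterodine against pBOO. The cell culture work of the series design was not used here.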

Additional observations from a re-analysis of the deposited data

How the results depend on the processing

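Over the 3 comparisons, 551 single-gene values were recomputed under the alternatives, of which 485 stayed on their side of the threshold, 36 lost the call, 30 gained it and 0 of the called values changed sign. The members called in pBOO against sham numbered 3, and they numbered 6 with the scan as a fixed block, 5 with it as a random block and 3 to 4 when single arrays were left out. They numbered 5 to 6 with tolterodine against pBOO and 4 to 6 with tolterodine against sham when single arrays were left out, beside 5 in each. With tolterodine against sham all 7 tested were called with the scan as a fixed block, as a random block and within a scan. Tolterodine 3 has a scan of its own, so the fixed block and the fit within a scan rest on the same arrays. These are tolterodine 1 and 2 and sham 2 and 3. All genes called in pBOO against sham were 4695, and they were 3026 with normexp, 2854 within a scan, where the sham side is sham 1 alone, and 3406 to 5143 with single arrays left out. In pBOO against sham they were 4818 of 11047 with the scan as a fixed block and 4980 with it as a random block. With tolterodine against pBOO they were 4563, and they were 3000 with normexp and 3396 to 5336 with single arrays left out. With the scan as a fixed and a random block they were 4388 and 4508 in that comparison. With tolterodine against sham they were 2695, and they were 961 with normexp, 4484 and 4276 with the scan as a fixed and a random block, 5850 within a scan, and 1413 to 3784 with single arrays left out (1569 without tolterodine 1, 1461 without tolterodine 2, 1614 without sham 2 and 1413 without sham 3). The cause of these moves was not tested. With the replicate number as a block 3, 5 and 5 members were called, as without it, and the block changed 1 call, that of Efemp1 in pBOO against sham (limma adjusted p = 0.0451). Deviations from the group means had r of -0.08 to 0.18 over 9 pairs of arrays with the same number. Over 18 pairs of different numbers r was -0.18 to 0.16. With 3 arrays per group, these values cannot settle whether the numbers pair arrays. Differences called in neither setting that changed sign were Fbn1 with tolterodine against pBOO under the scan blocks (-0.08 and -0.04), Fbln5 with tolterodine against sham under quantile scaling (-0.06) and Efemp1 with tolterodine against sham (-0.30 to 0.29). Scan and group are linked for pBOO, whose 3 arrays share a scan with sham 1 alone.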
